A study of Rattus norvegicus with 58 samples.

Results

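Synovial tissue from rats with pristane-induced arthritis (PIA) was sequenced as 8 replicates in each of 4 groups, and replicates 5 to 8 were compared here with replicates 1 to 4. The replicate number in the sample title chose the members, and it gave 32 of the 58 libraries of the series, 4 in each set of each group. The groups were PIA_3d_RTD-1 and PIA_5d_RTD-1, from arthritic rats given RTD-1 under the skin at 5 mg per kg in saline for 3 or 5 days, and PIA_3d_Saline and PIA_5d_Saline, from arthritic rats given saline for as long. All were female DA/OlaHsd rats of 6 to 8 weeks that had been injected with 250 µl of pristane, and the first day of treatment followed a score of at least 3 in each rear limb. The other 26 libraries, which served for orientation, were 4 each from PIA_1d_RTD-1, PIA_1d_Saline, untreated PIA and naive rats, and 5 each from healthy rats given RTD-1 for 3 or 5 days. The labels do not say what separates the sets (animals, day of dissection, library preparation or run), so these cannot be told apart. Nor do they state that each library is a separate animal, and the spread behind each p-value may be partly technical.

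The synovium is the lining of the joint. In arthritis its fibroblasts multiply, neutrophils, macrophages and lymphocytes enter it, and cytokines, chemokines and matrix-degrading enzymes rise. A dissected synovium also carries fat, vessels and, at times, muscle, in amounts that vary with the dissection. RTD-1 (rhesus theta-defensin 1) is a cyclic antimicrobial peptide of macaque leukocytes and lowers the release of inflammatory cytokines. Pristane is a hydrocarbon oil that provokes a T-cell-dependent polyarthritis in DA rats. The table lists Ensembl gene identifiers without symbols, and none of its 16879 identifiers matched the reference annotation, so genes are given by identifier, without a role, and neither the tissue nor its cell types could be checked against markers.

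Values are given as normalized reads, which are reads scaled to the median of the authors' library factors (5.75 megareads). A set difference is the mean of log2(normalized reads + 1) in replicates 5 to 8 minus the mean in replicates 1 to 4, so a positive value is higher in replicates 5 to 8. On this scale differences of low genes are understated. Genes were called where limma gave a Benjamini-Hochberg adjusted p under 0.05 over the 12314 genes tested.

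Replicates 5 to 8 had fewer reads in genes than replicates 1 to 4. They held between 0.465 and 1.74 megareads (Mreads) in PIA_3d_RTD-1, between 1.80 and 2.20 in PIA_3d_Saline, between 1.56 and 2.04 in PIA_5d_RTD-1 and between 1.017 and 1.714 in PIA_5d_Saline. Replicates 1 to 4 of the same groups held between 1.65 and 3.75, 1.58 and 5.73, 1.54 and 2.87, and 1.65 and 6.42 Mreads. The mean log2 number of reads was 20.55 ± 0.56 in replicates 5 to 8 and 21.23 ± 0.61 in replicates 1 to 4 (SD, n = 16 each), a difference of -0.68 (two-sided exact permutation test within groups, p = 0.000785, adjusted p = 0.00235 over 3 library measures). The shallowest libraries, replicates 6 and 8 of PIA_3d_RTD-1, lay in the first of these sets, and the deepest, replicate 4 of PIA_3d_Saline and replicate 1 of PIA_5d_Saline, in the second. In the deepest pair a single gene took 10.1% and 7.59% of reads, and it was not the gene that led the other 30 libraries.

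Across the 4 groups, 70 genes separated the sets, which is 0.568% of those tested. Only 9 (0.0731%) were higher in replicates 5 to 8, and 61 (0.495%) were lower (limma with group as a block). Each of the 70 had the same sign in all 4 groups, as had 17.5% of all genes (2.44% higher, 15.1% lower). The 70 were called on the average of these same 4 differences, which favours a shared sign, so this agreement is not a test. Most changes were small. The 61 lower genes fell by 0.36 to 3.25 on the log2 scale, with a median of -0.62, and 55 of them changed less than 2-fold. The 9 higher genes rose by 0.54 to 4.51, with a median of 2.65. The median of all genes was -0.09. At an unadjusted p under 0.05 there were 1900 genes (15.4%), 257 higher and 1643 lower.

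**Figure D1:**
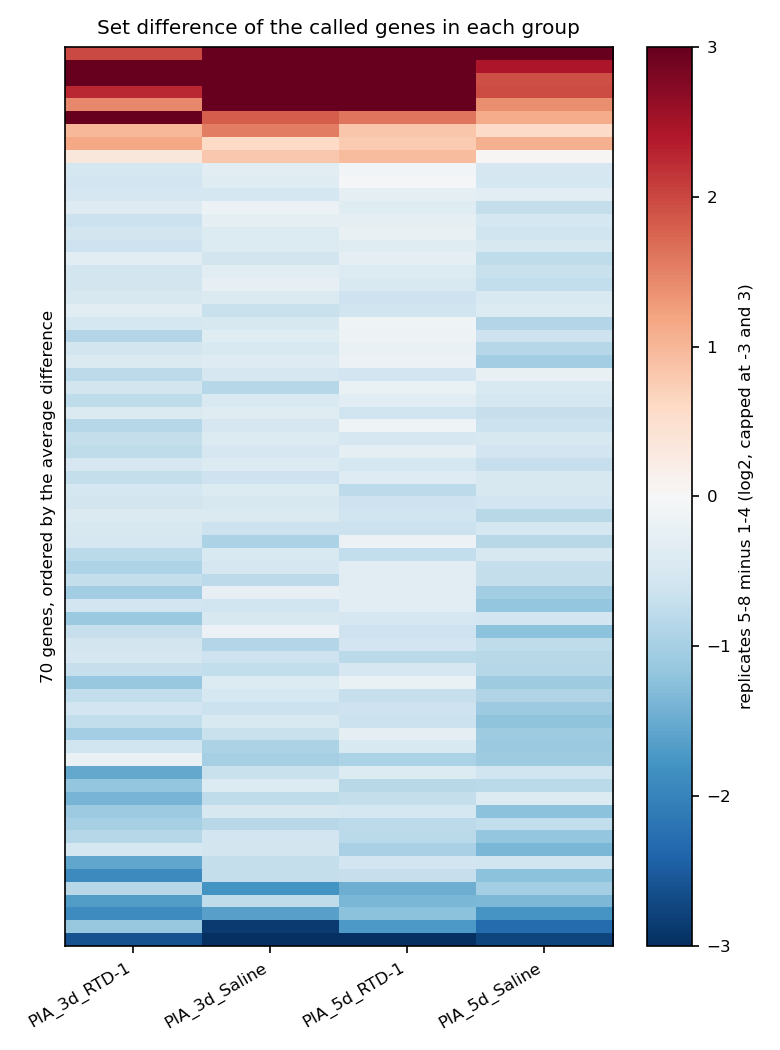
Set difference (replicates 5 to 8 minus replicates 1 to 4, log2) of the 70 called genes in each of the 4 groups, 1 row per gene, with red for higher and blue for lower in replicates 5 to 8. The 9 higher genes are at the top and the 61 lower genes under them, with the same sign in every column. The genes were called on the average of these 4 columns, which favours a shared sign.

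The balance between higher and lower genes depended on how libraries were scaled. With TMM factors, which centre each library on the bulk of its genes, 352 genes were called (2.86%), 213 of them higher (1.73%) and 139 lower (1.13%). The TMM calls held 68 of the 70 genes, and all 70 kept their sign. The median of all genes was -0.005 with TMM factors. The count also rested on single libraries. It was 24 (9 higher, 15 lower) without replicates 6 and 8 of PIA_3d_RTD-1, the shallowest pair, and 22 of those were among the 70. It was 36 without replicate 8 of PIA_5d_Saline. It was 163 without replicate 5 of PIA_3d_RTD-1, 137 without replicate 5 of PIA_5d_Saline and 126 without replicate 5 of PIA_3d_Saline, and each of these 3 counts held all 70 genes.

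Of all 12314 genes tested, 4021 had a mean under 5 on the log2 scale. With the authors' scaling a mean of at least 5 was reached by 2 of the 9 higher genes and by 51 of the 61 lower genes. With TMM factors 21 of the 213 higher genes and 19 of the 139 lower genes had a mean under 5, so this contrast was not seen there. A read was found for 4 of the 9 higher genes in 11 to 16 of the 16 libraries of replicates 5 to 8, against 2 to 5 of the 16 libraries of replicates 1 to 4 and 2 to 10 of the 26 other libraries. Those with a read in only 2 or 3 libraries of replicates 1 to 4 could not pass the filter of 4 libraries without replicates 5 to 8. The one with a read in 5, ENSRNOG00000059586, reached 10 normalized reads in replicates 1 to 4 with 18.4, 142, 18.3 and 14.2. The counts describe these genes and support nothing about the higher side. On the lower side, 60 of the 61 genes had a read in at least 15 libraries of each set. The share of all genes that did was not counted.

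The gene with the smallest p, ENSRNOG00000046657, was close to absent from replicates 5 to 8. It had 1 read in the 16 libraries of replicates 5 to 8, in replicate 5 of PIA_5d_Saline (1.25 normalized reads), against 227 reads in replicates 1 to 4. Every one of the 16 libraries of replicates 1 to 4 had at least 1 read of it. It passed the filter (10 normalized reads in 4 or more of the 32 libraries) only through replicates 1 to 4. The values below therefore describe this gene and support nothing about the lower side. The ratio of its normalized reads was 0.00678 (95% exact interval 0.000171 to 0.0382, which covers counting error only), and its set difference was -3.25 (SE 0.32, limma adjusted p = 4.30e-08).

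Within PIA_3d_Saline, ENSRNOG00000046657 had 0 normalized reads in replicates 5 to 8, against 14.3, 14.9, 14.1 and 11.4 in replicates 1 to 4. Within PIA_5d_RTD-1 it had 0 in replicates 5 to 8, against 35.9, 7.72, 16.4 and 4.84 in replicates 1 to 4. Within PIA_3d_RTD-1 it had 0 in replicates 5 to 8, against 5.28, 7.83, 3.68 and 4.43 in replicates 1 to 4. The sets did not overlap in any of these groups. Such a gap was found in many genes: the share of all genes with no overlap and lower in replicates 5 to 8 was 4.8% in PIA_3d_RTD-1, 0.755% in PIA_3d_Saline, 1.92% in PIA_5d_RTD-1 and 8.03% in PIA_5d_Saline, and the share with no overlap and higher was 0.203%, 5.04%, 3.81% and 0.0893% in the same groups. Within PIA_5d_Saline it had 1.25, 0, 0 and 0 normalized reads in replicates 5 to 8, against 19.5, 2.57, 10.9 and 4.27 in replicates 1 to 4, and the sets did not overlap there either. Counting 0 reads in a group as 3, it was at least 14.9-fold lower in PIA_3d_Saline, at least 18.02-fold lower in PIA_5d_RTD-1 and at least 3.73-fold lower in PIA_3d_RTD-1. With the authors' scaling it was the single gene called within any group, with limma adjusted p = 0.00815 in PIA_3d_Saline and 0.0143 in PIA_5d_RTD-1. Both calls were lost with a pseudocount of 8 and with limma voom, and when single libraries of the group were left out (3 of the 32 fits for PIA_3d_Saline, with adjusted p up to 0.0623, and 4 for PIA_5d_RTD-1, up to 0.365). It was also the only 1 of the 12314 genes (0.00812%) whose 16 values in one set all lay on one side of the 16 in the other. It passed the filter only through replicates 1 to 4, so this separation is a description and not a test. In the 26 other libraries it was detected in 15 of the 16 from naive and arthritic rats and in 0 of the 10 from healthy rats given RTD-1, where 3 reads over the 10 libraries would be 0.119 normalized reads.

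Of the genes with a mean of at least 5, ENSRNOG00000042086 and ENSRNOG00000002141 were the higher ones. ENSRNOG00000042086 averaged 115 ± 31.9 normalized reads in replicates 5 to 8 and 63.3 ± 25.8 in replicates 1 to 4 (SD, n = 16 each). Its set difference was 0.90 (SE 0.16, limma adjusted p = 0.00430). In PIA_3d_RTD-1 it had 120, 178, 98.0 and 150 normalized reads in replicates 5 to 8, against 62.6, 49.6, 56.4 and 69.2 in replicates 1 to 4. In PIA_5d_RTD-1 it had 87.1, 117, 103 and 130 in replicates 5 to 8, against 45.3, 59.0, 67.9 and 81.4 in replicates 1 to 4. The sets did not overlap in either RTD-1 group. The share of all genes with no overlap and higher was 0.203% in PIA_3d_RTD-1 and 3.81% in PIA_5d_RTD-1. In PIA_3d_Saline it had 87.6, 94.7, 115 and 157 in replicates 5 to 8, against 125, 74.7, 105 and 28.7 in replicates 1 to 4. In PIA_5d_Saline it had 56.3, 152, 88.6 and 103 in replicates 5 to 8, against 25.1, 42.3, 49.7 and 71.2 in replicates 1 to 4. The sets overlapped in both saline groups. Its differences were 1.16 in PIA_3d_RTD-1, 0.59 in PIA_3d_Saline, 0.79 in PIA_5d_RTD-1 and 1.07 in PIA_5d_Saline. The difference under RTD-1 minus that under saline was 0.14 (SE 0.34) and was not called.

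ENSRNOG00000002141 averaged 219 ± 54.7 normalized reads in replicates 5 to 8 and 152 ± 43.8 in replicates 1 to 4 (SD, n = 16 each), a set difference of 0.54 (SE 0.13, limma adjusted p = 0.0372). In PIA_5d_RTD-1 it had 190, 232, 287 and 214 in replicates 5 to 8, against 109, 118, 112 and 133 in replicates 1 to 4, without overlap. The share of all genes with no overlap and higher was 3.81% there. In PIA_3d_RTD-1 it had 135 to 318 in replicates 5 to 8, against 142 to 227 in replicates 1 to 4, a difference of 0.34. In PIA_3d_Saline it had 169 to 270 in replicates 5 to 8, against 111 to 184 in replicates 1 to 4, a difference of 0.82. The sets overlapped in both 3-day groups. In PIA_5d_Saline it averaged 168 ± 15.4 in replicates 5 to 8 and 167 ± 49.3 in replicates 1 to 4 (SD, n = 4 each). With the authors' scaling its limma adjusted p ran between 0.0105 and 0.0641 when each library was left out, and the call was lost in 16 of those 32 fits. With TMM factors its adjusted p was 0.000175.

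The largest declines among genes with a mean of at least 5 were those of ENSRNOG00000020016 and ENSRNOG00000010105. ENSRNOG00000020016 averaged 21.99 ± 8.19 normalized reads in replicates 5 to 8 and 57.9 ± 32.7 in replicates 1 to 4 (SD, n = 16 each). Its set difference was -1.27 (SE 0.20, limma adjusted p = 0.000709). In PIA_3d_Saline it had 21.9, 17.98, 16.4 and 29.1 in replicates 5 to 8, against 79.9, 64.4, 44.8 and 131 in replicates 1 to 4. In PIA_5d_RTD-1 it had 21.1, 13.1, 20.6 and 14.1 in replicates 5 to 8, against 61.5, 49.2, 38.6 and 46.5 in replicates 1 to 4. The sets did not overlap in these groups, where the differences were -1.78 and -1.46. The share of all genes with no overlap and lower was 0.755% and 1.92% there. In PIA_3d_RTD-1 it had 27.8, 13.5, 32.2 and 19.8 in replicates 5 to 8, against 39.2, 47.0, 30.7 and 46.1 in replicates 1 to 4. In PIA_5d_Saline it had 42.5, 27.4, 22.1 and 12.2 in replicates 5 to 8, against 137, 23.1, 33.8 and 54.1 in replicates 1 to 4. The sets overlapped in both, and replicate 5 of PIA_5d_Saline was the highest of the 16 libraries of replicates 5 to 8.

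ENSRNOG00000010105 averaged 82.9 ± 37.2 normalized reads in replicates 5 to 8 and 143 ± 39.8 in replicates 1 to 4 (SD, n = 16 each), a set difference of -0.86 (SE 0.18, limma adjusted p = 0.0148). In PIA_5d_RTD-1 it had 62.0, 61.5, 80.2 and 46.7 in replicates 5 to 8, against 138, 124, 89.0 and 148 in replicates 1 to 4, without overlap. The share of all genes with no overlap and lower was 1.92% there and 8.03% in PIA_5d_Saline. In PIA_3d_Saline it had 148, 69.5, 79.4 and 81.6 in replicates 5 to 8, against 168, 136, 88.4 and 159 in replicates 1 to 4. Replicate 5 lay among replicates 1 to 4 there. In PIA_5d_Saline it had 126, 74.6, 36.0 and 54.1 in replicates 5 to 8, against 154, 140, 168 and 231 in replicates 1 to 4, without overlap, and its difference there, -1.36, was the largest of the 4 groups. In PIA_3d_RTD-1 it had 145, 40.4, 141 and 79.3 in replicates 5 to 8, against 204, 95.2, 150 and 97.6 in replicates 1 to 4, and the sets overlapped. Without the shallowest pair of libraries the difference was -0.77 and the adjusted p 0.0547, which missed the threshold.

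A pair of low-level genes, chosen after their values were seen, had the second-smallest p and the largest difference among higher genes. ENSRNOG00000008694 averaged 56.4 ± 34.5 normalized reads in replicates 5 to 8 and 4.31 ± 5.48 in replicates 1 to 4 (SD, n = 16 each), a set difference of 3.52 (SE 0.47, limma adjusted p = 0.000122). In PIA_5d_Saline it had 0, 77.1, 24.9 and 47.5 in replicates 5 to 8, against 15.4, 1.28, 3.98 and 1.42 in replicates 1 to 4. Replicate 5 of PIA_5d_Saline, at 0, was the exception among the 16 libraries of replicates 5 to 8, since the other 15 had between 17.6 and 155. The highest value in replicates 1 to 4 was 19.0, in replicate 4 of PIA_3d_Saline, and the 26 other libraries had between 0 and 13.8. In replicates 1 to 4 only that value and the 15.4 in PIA_5d_Saline reached 10 normalized reads. The gene thus needed replicates 5 to 8 to pass the filter of 4 libraries, and its contrast describes it and supports nothing further.

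ENSRNOG00000059586 had between 3.73 and 575 normalized reads in replicates 5 to 8, with a median of 75.0, against between 0 and 142 in replicates 1 to 4, with a median of 0. It had no read in 11 of the 16 libraries of replicates 1 to 4. The 26 other libraries had between 0 and 215, with a read in 8 of them. The difference was 6.64 in PIA_3d_Saline, 5.56 in PIA_5d_RTD-1, 3.85 in PIA_5d_Saline and 1.99 (SE 1.41) in PIA_3d_RTD-1. In PIA_3d_RTD-1 the sets overlapped, with 4.39 to 205 in replicates 5 to 8 and 0 to 142 in replicates 1 to 4. Its set difference was 4.51 (SE 0.75, limma adjusted p = 0.00323), and with limma voom on the recovered reads the adjusted p was 0.230.

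**Figure D2:**
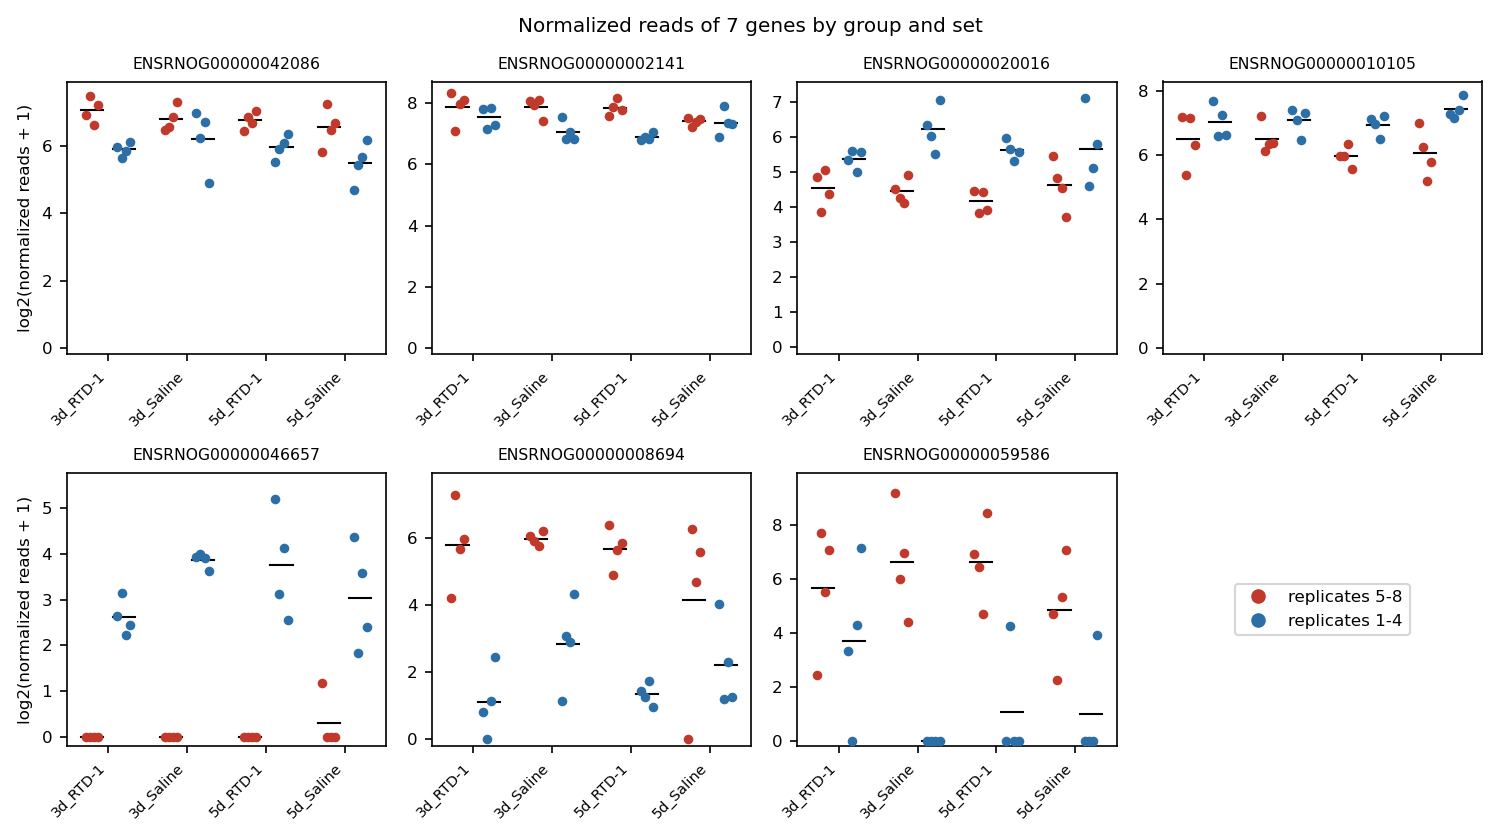
Log2(normalized reads + 1) of the 7 genes in each group, with 1 point per library, replicates 5 to 8 in red left of replicates 1 to 4 in blue, and a bar at the mean of 4. ENSRNOG00000046657 is at 0 in 15 of 16 libraries of replicates 5 to 8 and above 0 in all 16 of replicates 1 to 4.

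To see which libraries carried the difference, each library was placed on the genes called without it, as its mean distance, signed by the direction of each gene, from the midpoint of the remaining libraries of its group. A positive position is on the side of replicates 5 to 8. Of the 16 libraries of replicates 5 to 8, 14 fell on their own side, and of the 16 of replicates 1 to 4, all 16 did. The exceptions were replicate 5 of PIA_3d_RTD-1 at -0.36 and replicate 5 of PIA_5d_Saline at -0.31. Replicate 5 of PIA_3d_Saline lay at 0.01, next to the midpoint, and replicate 5 of PIA_5d_RTD-1 at 0.47, within its set. With TMM factors the same 2 libraries were the exceptions, at -0.15 and -0.21, and replicate 5 of PIA_3d_Saline was at 0.15. The genes had been called on the other libraries of the same groups, so the positions describe the libraries and are not a test.

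Most libraries outside the comparison lay on the side of replicates 1 to 4, but the naive libraries were split with the authors' scaling. Placed on the 70 genes, 24 of the 26 were on the side of replicates 1 to 4. The naive libraries lay between -0.26 and 0.18, with 2 on each side. With TMM factors and the 352 genes, 26 of 26 were on that side. Of the 70 genes, the mean was nearer to that of replicates 1 to 4 for 67 in PIA_1d_RTD-1, 63 in PIA_1d_Saline, 66 in untreated PIA, 47 in Healthy_3d_RTD-1, 50 in Healthy_5d_RTD-1 and 33 in naive rats. Among all 12314 genes this share was 52.0% to 60.9% over the 6 groups.

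**Figure D3:**
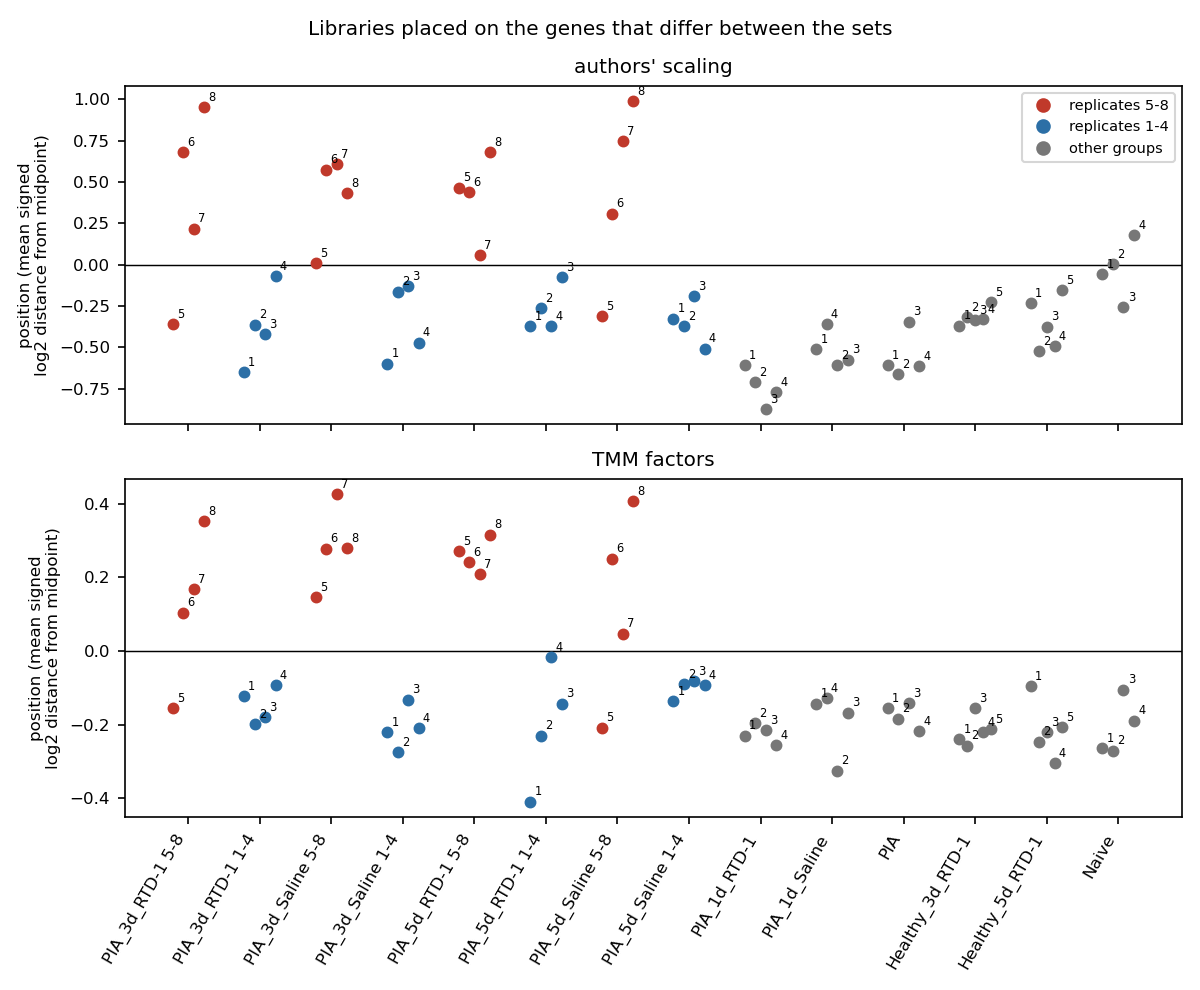
Position of each library on the genes that differ between the sets (mean signed log2 distance from the midpoint, above 0 for the side of replicates 5 to 8), with the authors' scaling in the upper panel and TMM factors in the lower panel, and the replicate number beside each point. All 16 libraries of replicates 1 to 4 are below 0, and 14 of 16 of replicates 5 to 8 are above it, the exceptions being replicate 5 of PIA_3d_RTD-1 and of PIA_5d_Saline.

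Within single groups few genes were called. There were 0 in PIA_3d_RTD-1 (0%), 1 lower in PIA_3d_Saline (0.00812%), 1 lower in PIA_5d_RTD-1 (0.00812%) and 0 in PIA_5d_Saline (0%), by limma on the 8 means. At an unadjusted p under 0.05 there were 1549 genes in PIA_3d_RTD-1 (12.6%), 1503 of them lower, and 2037 in PIA_5d_Saline (16.5%), 2011 of them lower. PIA_3d_Saline had 891 (7.24%), of which 772 were higher, and PIA_5d_RTD-1 had 1009 (8.19%), of which 799 were higher. The median gene followed the same order, at -0.24 in PIA_3d_RTD-1, 0.12 in PIA_3d_Saline, 0.08 in PIA_5d_RTD-1 and -0.32 in PIA_5d_Saline. With TMM factors the medians were -0.03, 0.01, 0.02 and 0.01 in the same groups, and the calls were 0, 2, 11 and 0.

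The share of the authors' scaling factor that lay in genes moved with these medians, partly by construction, as reads are divided by that factor. It was 37.2% ± 7.57 in replicates 5 to 8 and 41.7% ± 5.64 in replicates 1 to 4 of PIA_3d_RTD-1, and 40.9% ± 4.87 and 39.5% ± 5.21 in PIA_3d_Saline (SD, n = 4 each). It was 36.8% ± 2.51 in replicates 5 to 8 and 36.0% ± 5.52 in replicates 1 to 4 of PIA_5d_RTD-1, and 32.3% ± 5.66 and 42.5% ± 5.38 in PIA_5d_Saline (SD, n = 4 each). In PIA_5d_Saline replicates 5 to 8 had 37.3%, 35.5%, 24.5% and 32.04%, against 41.9%, 36.9%, 41.5% and 49.8% in replicates 1 to 4, a difference of -10.2 points (two-sided exact permutation p = 0.0571; 4 against 4 cannot go below 0.0286). Over the 4 groups the difference was -3.12 points (exact permutation p = 0.137, adjusted p = 0.205). The part of this share in the gene-wise differences was not tested beyond the change of factors.

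**Figure D4:**
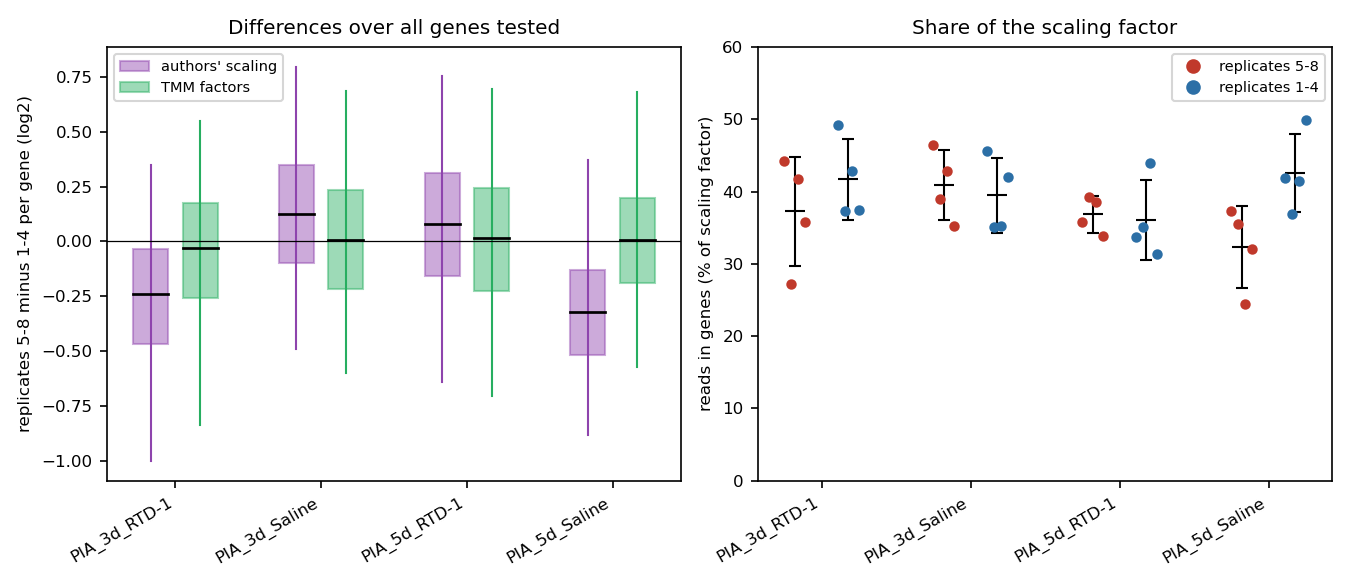
Left, the set difference per gene (replicates 5 to 8 minus replicates 1 to 4, log2) over 12314 genes in each group, with boxes from the 25th to the 75th percentile, lines from the 5th to the 95th and a bar at the median, for the authors' scaling and for TMM factors. Right, reads in genes as a percentage of the authors' scaling factor, 1 point per library with mean and SD of 4, replicates 5 to 8 left of replicates 1 to 4. The medians of PIA_3d_RTD-1 and PIA_5d_Saline lie at -0.24 and -0.32 with the authors' scaling and within 0.03 of 0 with TMM factors.

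Whether the set difference depended on arm or day was tested with interaction terms. No gene was called for set by arm, which is the set difference under RTD-1 minus that under saline (0% of 12314), and 233 (1.89%) had an unadjusted p under 0.05. No gene was called for set by day, the difference at day 5 minus that at day 3 (0%), and 382 (3.1%) had an unadjusted p under 0.05. The lowest adjusted p was 1.00 for both. With TMM factors the unadjusted counts were 448 and 677, again with 0 called.

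The interaction of set, arm and day also gave 0 calls (0%), but 2962 genes (24.1%) had an unadjusted p under 0.05 and 2954 of them were positive. Its median over all genes was 0.79, and the lowest adjusted p was 0.107. With TMM factors the median was 0.07, 663 genes had an unadjusted p under 0.05 and none was called. The count was 680, all positive, with all 58 libraries in the fit, 424, all positive, without replicate 4 of PIA_5d_RTD-1, and 0 when any of the other libraries was left out. For ENSRNOG00000046657 set by arm was 0.13 (SE 0.63) and set by day -0.01 (SE 0.63). For ENSRNOG00000008694 set by arm was 1.97 (SE 0.90), with differences of 4.69 in PIA_3d_RTD-1 and 4.34 in PIA_5d_RTD-1, against 3.13 in PIA_3d_Saline and 1.94 in PIA_5d_Saline, and the limma adjusted p was 1.00.

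The 4 groups share no library, so their set differences can be laid side by side. Over all genes Pearson's r between them ran from 0.04, between PIA_3d_RTD-1 and PIA_5d_Saline, to 0.36, between PIA_3d_Saline and PIA_5d_Saline. These are correlations across 12314 genes, which are not independent, and they moved with single libraries. Without the deepest saline libraries the saline pair was at 0.16, and PIA_3d_Saline with PIA_5d_RTD-1 was at 0.43, against 0.30 with all libraries. Without replicate 5 of PIA_5d_Saline, PIA_5d_RTD-1 with PIA_5d_Saline was at 0.35, against 0.21 with all libraries. The sign was the same in all 4 groups for 2161 genes (17.5%), 301 higher and 1860 lower, and with TMM factors for 2822 genes (22.9%), 1446 higher and 1376 lower. Of the variance within groups, 6.48% lay in the shared set difference (1 of 28 degrees of freedom), 11.6% in set differences that varied between groups (3 of 28) and 81.9% between libraries of the same set and group (24 of 28).

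The arthritis signature was compared last. It was taken from the 26 libraries outside the comparison, as 3304 genes called between untreated PIA and naive rats with a change of at least 2-fold, 2057 higher (16.2% of 12706 genes) and 1247 lower (9.81%). A library's score is the mean log2 value of the higher genes less that of the lower genes, set to 0 in naive rats, and untreated PIA averaged 4.10 ± 0.38 (SD, n = 4). The score was 3.28 ± 0.48 in replicates 5 to 8 and 3.11 ± 0.77 in replicates 1 to 4 (SD, n = 16 each), a difference of 0.17 (two-sided exact permutation test within groups, p = 0.401).

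The widest gap in score was in PIA_5d_RTD-1. There replicates 5 to 8 scored 2.95, 3.60, 3.40 and 3.15, against 2.05, 1.64, 3.36 and 3.05 in replicates 1 to 4. Replicates 1 and 2 lay below every other library of the group, and the sets overlapped. The means were 3.27 ± 0.29 in replicates 5 to 8 and 2.53 ± 0.81 in replicates 1 to 4 (SD, n = 4 each), a difference of 0.75 (exact permutation p = 0.171). The differences were -0.17 in PIA_3d_RTD-1 (exact permutation p = 0.600), 0.17 in PIA_3d_Saline (p = 0.743) and -0.06 in PIA_5d_Saline (p = 0.857), each from 4 libraries against 4.

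Gene by gene, the signature gave 0 calls in either direction within PIA_5d_RTD-1 with the authors' scaling. With TMM factors 2 of its 2026 tested higher genes were called higher in replicates 5 to 8, beside 9 of all 12314 genes. The 2026 tested genes higher in arthritis had a median set difference of 0.28 in PIA_5d_RTD-1 (0.21 with TMM factors), against 0.08 over all genes. The 969 genes lower in arthritis had a median of -0.32 (-0.38 with TMM factors). Over the 4 groups the medians were -0.07 for the genes higher in arthritis and -0.19 for those lower, beside -0.09 over all genes. Of the 70 called genes, 64 could be tested for the signature, and 12 belonged to its higher and 2 to its lower genes. The 12 were all lower in replicates 5 to 8 with the authors' scaling, which is 0.592% of the 2026, beside 0.495% of all genes called lower. With TMM factors 23 of the 2026 were called higher and 24 lower, beside 1.73% higher and 1.13% lower among all genes.

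**Figure D5:**
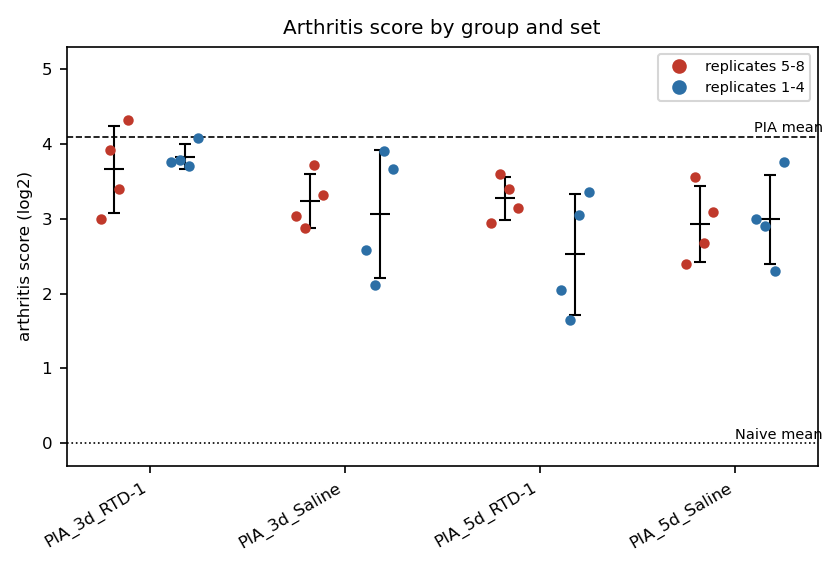
Arthritis score (log2) of each library by group, replicates 5 to 8 in red left of replicates 1 to 4 in blue, with mean and SD of 4 and lines at the means of untreated PIA (4.10) and naive rats (0). The sets overlap in all 4 groups, and replicates 1 and 2 of PIA_5d_RTD-1, at 2.05 and 1.64, are the lowest of the 32 libraries.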

How the data were processed

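Libraries from synovial total RNA kept the strand and were read from 1 end over 75 nt, per the labels' protocols. The submitters' processing notes list HISAT and DESeq with no version. The settings, build and annotation behind the table were not given in the sources used here. Per the file's own values, the deposited values are log2: each is the log2 of whole reads over 1 factor per library, with 0 reads held as 0.9 of a read, and whole reads were recovered for 100% of values within a relative tolerance of 0.001. The test was chosen for unlogged values and was applied after undoing the logarithm. The row without an identifier (0.000384% to 0.0137% of reads) was left out.

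Groups and replicate numbers came from sample titles. Every pair of libraries in a set differed beyond sampling noise, the smallest chi-square being 2.70 per degree of freedom. Genes reaching 10 normalized reads in 4 or more of the 32 libraries were tested with limma 3.58.1 in R 4.3.3, with empirical Bayes moderation (trend and robust): the average with group as a block, and groups and interactions from 8 means. Single library values were tested by two-sided exact permutation of set labels within groups. Members and lists were chosen with earlier results of these data known. The rule named the called genes with the largest change and a mean of at least 5, limited to 2 identifiers per direction because no symbols were had, with any gene called in a group; the 30 gene and marker lists were not analysed here. Scripts were tested on simulated data. Figures used matplotlib 3.10.9. Alternatives are given in the closing section.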

Additional observations from a re-analysis of the deposited data

Results flagged for a closer look

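Among 76 sets of 4 libraries examined (the 7 genes and the library measures in each set and group), 6 had a library far from the other 3, and chance flags about 1 in 20, a rate that does not hold for sets whose other 3 values are all 0. Replicate 7 of PIA_5d_Saline had the fewest reads of its set, 19.96 on the log2 scale against 20.65 for the nearest. ENSRNOG00000010105 had 148 normalized reads in replicate 5 of PIA_3d_Saline, against 81.6 for the nearest of replicates 6 to 8. ENSRNOG00000046657 had 1.25 normalized reads in replicate 5 of PIA_5d_Saline, where replicates 6 to 8 had 0. ENSRNOG00000059586 stood out in replicates 1 to 4 of 3 groups, with 142 normalized reads in replicate 4 of PIA_3d_RTD-1, 18.3 in replicate 2 of PIA_5d_RTD-1 and 14.2 in replicate 4 of PIA_5d_Saline. In both 5-day groups the other 3 libraries of the set had 0. Any value above 0 stands out in such a set, and the ENSRNOG00000046657 value is 1 read.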

How the results depend on the processing

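Counts of called genes moved with scaling, weighting and membership of the fit, and the causes were not tested. The average set difference (70 genes) gave 352 with TMM factors, 342 with quantile normalization, 372 with all 58 libraries in the fit, 229 with array weights and 24 without the shallowest libraries. It stayed within 1.5 times of 70 under the remaining settings, between 50 (voom) and 104 (without the deeper saline libraries), with 54 for thinned reads. Leaving out each library gave 36 to 163. The fits added after the data were seen, TMM factors without replicate 5 of PIA_5d_Saline and TMM factors without the deeper saline libraries, gave 518 and 495.

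PIA_3d_RTD-1 (0 genes) gave 71 with all 58 libraries, 7 with array weights, 3 without the deeper saline libraries, 2 with TMM factors without replicate 5 of PIA_5d_Saline, and 0 to 4 when each library was left out. PIA_3d_Saline (1 gene) gave 0 with a pseudocount of 8, a filter of 50 normalized reads, voom, and without the deeper saline libraries with either scaling. It gave 2 with TMM factors, 4 with all 58 libraries and 3 with TMM factors without replicate 5 of PIA_5d_Saline, and 0 to 1 when each library was left out. PIA_5d_RTD-1 (1 gene) gave 0 with a pseudocount of 8, a filter of 50 and voom, 3 with the deposited log2 values and with thinned reads, 5 without a filter, 11 with TMM factors, 9 with quantile normalization, 8 with all 58 libraries, 246 with array weights (210 higher, 36 lower) and 2 without the shallowest libraries. The added TMM fits gave 16 without the deeper saline libraries and 15 without replicate 5 of PIA_5d_Saline, and leaving out each library gave 0 to 6. In both groups the called gene was ENSRNOG00000046657, whose highest value was 35.9 normalized reads. The filter of 50 therefore removed it before testing, and the 0 at that setting is not a lost call. PIA_5d_Saline (0 genes) gave 37 with all 58 libraries and 0 in every fit that left out a library. Set by arm and set by day gave 0 in all fits. Set by arm by day gave 680 with all 58 libraries and 0 to 424 when each library was left out.

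With replicate number as a replicate block the average gave 80 genes, holding all 70, and the interactions gave 0. The numbers were not taken to pair libraries, which needed every same-number correlation of deviations over 0.1. Of these, 15 of 48 were (range -0.46 to 0.31, median 0.05), beside 31 of 144 between other numbers (median -0.01). Among the 32 libraries, 11 correlated best with their own number. A rule that needs all 48 is strict, so it cannot exclude that some libraries were paired. The differences in score (0.09 to 0.24), in log2 reads (-0.74 to -0.57) and in percent in genes (-3.70 to -2.28) kept their sign and side of the threshold when each library was left out. Under the other alternatives they did too, with 0.06 to 0.22 for the score, -0.51 to -0.48 for log2 reads and -2.96 to -1.68 for percent in genes. No named gene and no library measure changed its sign, but the balance of calls did: the average had 9 higher and 61 lower genes with the authors' scaling, 213 and 139 with TMM factors, and 191 and 151 with quantile normalization, and PIA_5d_RTD-1 had 0 higher and 1 lower, against 9 and 2 with TMM factors. ENSRNOG00000046657 lost its call within PIA_3d_Saline (adjusted p up to 0.189) and PIA_5d_RTD-1 (up to 0.365) under some of these fits, and kept both with thinned reads (0.0422 and 0.0461) and without the shallowest libraries (0.00799 and 0.0138).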
